A study of Homo sapiens with 3 samples.

Results

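The 9 genes ATF4, DDIT3, TRIB3, ASNS, PSAT1, SLC7A11, CHAC1, SESN2 and EIF2AK3 of the PERK-ATF4 integrated stress response were followed in cells differentiated toward pancreatic beta cells. They were chosen by symbol, and all 9 were found among the 33538 genes counted. The parental line was H1, a human embryonic stem cell line in wide laboratory use, and it was studied in 3 genotypes of PAX6, a homeodomain transcription factor of islet, eye and brain. The KO cells were PAX6-/-, the HET cells were PAX6+/- and the WT cells were wild type. All had gone through differentiation toward beta cells, and each genotype was 1 droplet single-cell library, so genotype and library cannot be told apart. Neither the site of the PAX6 lesion nor the number of clones behind a genotype was known for this work. No p-value is given for any difference, and every interval below covers counting error only, at 95%.

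Levels were read in 2 classes of cells with 1000 to 40000 UMIs, where a UMI is a counted RNA molecule. CHGA-high cells had at least 10 UMIs of CHGA, which encodes the granule protein chromogranin A, per 10000 UMIs, and CHGA-low cells had fewer. There were 1245 CHGA-high cells in KO (13.3% of the cells kept), 707 in HET (7.79%) and 1823 in WT (19.8%). CHGA-low cells numbered 8148 in KO, 8371 in HET and 7362 in WT. All 12 other endocrine markers reached 5 CPM, or 5 UMIs in 1000000 UMIs of the class, in the CHGA-high cells of every library, with sums of 8415 CPM in KO, 7943 in HET and 10203 in WT, against 482, 419 and 639.6 CPM in the CHGA-low cells of KO, HET and WT. INS UMIs reached 20 per 10000 and exceeded the other hormones gated in 13.3%, 22.3% and 21.6% of the CHGA-high cells of KO, HET and WT, so most cells of the class did not meet an insulin gate although the labels call the samples beta cells. PAX6 RNA itself stood at 297 CPM in KO, 238 CPM in HET and 309 CPM in WT CHGA-high cells, which checks no label while the site of the lesion is unknown. The median share of mitochondrial UMIs in CHGA-high cells was 9.50% in KO and 8.95% in HET, against 6.84% in WT. Cells just below the CHGA limit, with 5 to 10 per 10000 UMIs, had 89.7, 57.7 and 84.5 CPM of DDIT3 in KO (342 cells), HET (253) and WT (437), and cells just above it, with 10 to 20, had 41.1, 71.9 and 72.9 CPM in KO (231 cells), HET (150) and WT (385). Pairs of libraries shared 26 to 43 cell barcodes out of at least 9628 each. Sums of other markers in CHGA-high cells of KO, HET and WT were 2456, 2905 and 2658 CPM for 8 duct and epithelial genes and 468, 634 and 525 CPM for 6 intestinal genes. The 6 liver genes summed to 7264, 9468 and 10764 CPM, of which TTR, a gene that islet cells transcribe as well, gave 5607, 7456 and 8619 CPM. Acinar genes summed to 23.7, 38.9 and 116 CPM, mesenchymal genes to 78.2, 119.5 and 94.5 CPM, pluripotent genes to 24.2, 38.2 and 24.0 CPM, and immune and endothelial genes to 8.53, 6.58 and 8.87 CPM. Summed over its cells, a class held between 9572981 and 125610386 UMIs.

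PERK, the product of EIF2AK3, sits in the membrane of the endoplasmic reticulum and phosphorylates the translation factor eIF2 when unfolded proteins build up. Phosphorylated eIF2 lowers translation in general but lets the ribosome reach the ATF4 reading frame, and ATF4 then switches on genes for amino acid supply, redox balance and feedback. Other eIF2 kinases that sense amino acid shortage, heme or double-stranded RNA feed into the same factor, so ATF4 targets are not a readout of PERK alone. Beta cells rely on this branch because of their load of proinsulin, and loss of PERK causes early-onset diabetes in humans and mice.

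ATF4 binds composite C/EBP-ATF sites, whose core is TGATGNAA. The promoters of 8 of the 9 genes were found in the RefSeq table for GRCh38.p14, which spans 250 bases before to 50 after each start, while SLC7A11 is named only. On either strand, 2 of the 8 held the core, ASNS and CHAC1, against 4.46% of the 27305 genes in the table. The core TGACGT of the cyclic AMP response element was in 0 of the 8 (9.64% of genes), and the antioxidant response core TGACNNNGC was in TRIB3 (16.1% of genes). No match of one of these motifs overlapped another. The 2 windows with the core are shown because these ATF4 targets share it. ASNS and CHAC1 were lower in CHGA-high than in CHGA-low cells, but in CHGA-high cells only ASNS differed from WT beyond counting error. Capitals mark the core, which begins 68 bases before the RefSeq start of ASNS and 209 bases before that of CHAC1, in CHAC1 on the opposite strand. Both windows lie inside the gene positions given below, which come from another annotation and begin further upstream.
ASNS, chr7:97872443-97872502, minus strand: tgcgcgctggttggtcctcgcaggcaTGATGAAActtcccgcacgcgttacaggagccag
CHAC1, chr15:40953236-40953295, plus strand: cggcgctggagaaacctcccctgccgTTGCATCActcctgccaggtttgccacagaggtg
A match is a description of the letters and was not tested as a bound site.

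In all 3 libraries, all 9 genes were lower in CHGA-high than in CHGA-low cells. The median log2 ratio of the 9 was -1.03 in KO, -0.52 in HET and -0.73 in WT, whereas the median of all genes tested was 0.10, 0.00 and 0.08. At least 2-fold lower were 6 of the 9 in KO, where 10.3% of 12147 genes with at least 5 CPM in a class were that much lower. In HET 2 of the 9 were, beside 8.3% of genes, and in WT 2 of the 9, beside 8.78% of genes. In HET and WT these were PSAT1 and SLC7A11. In KO, CHAC1 at -1.01 (-1.24 to -0.78) and SESN2 at -1.03 (-1.15 to -0.92) stood at the 2-fold limit, with intervals that crossed it. At 1.5-fold, 9 of the 9 were lower in KO, 2 in HET and 7 in WT, beside 17.6%, 16.3% and 15.9% of all genes.

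**Figure D1:**
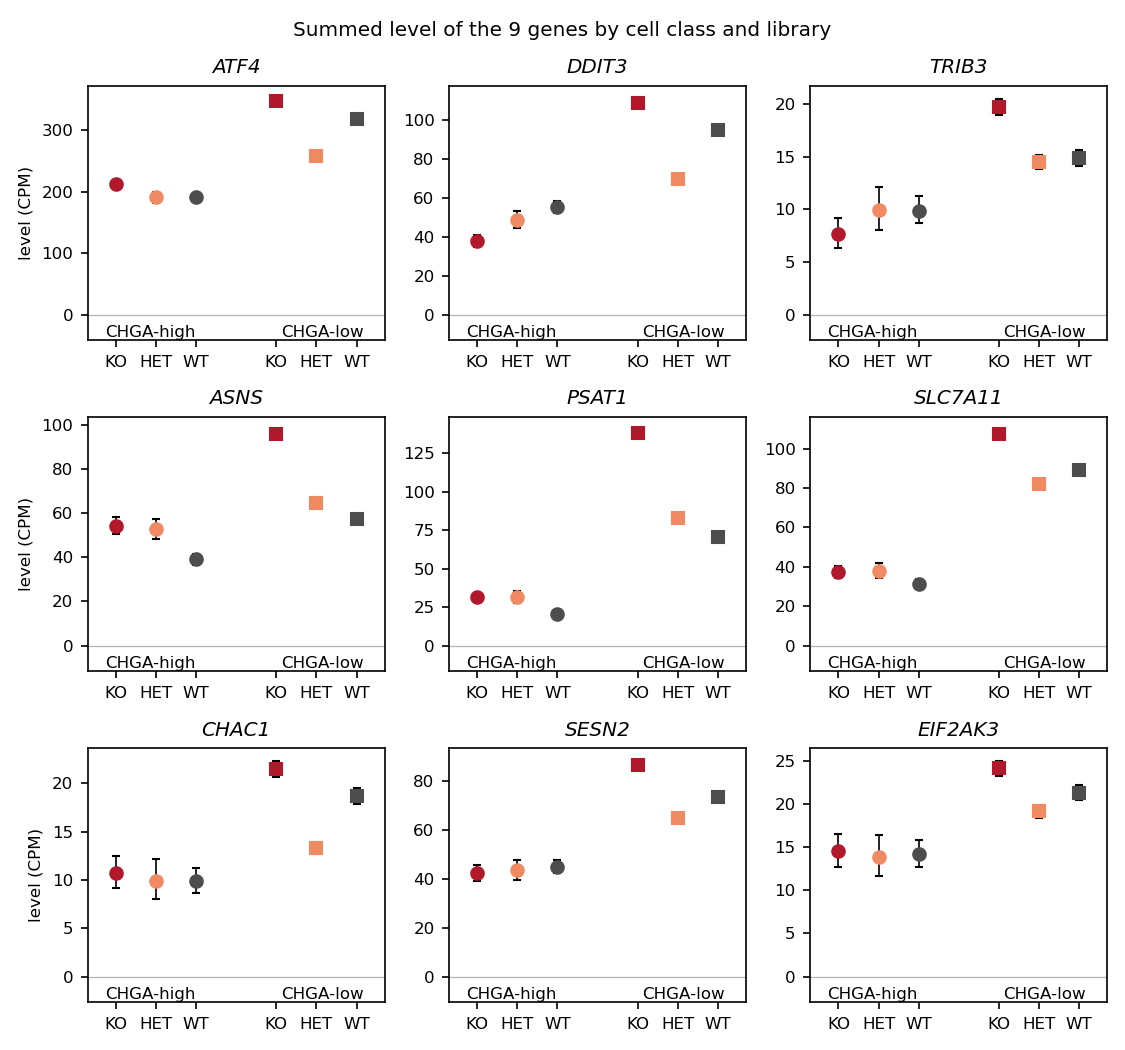
Levels of the 9 genes (CPM, linear axis) in the summed CHGA-high cells (circles) and CHGA-low cells (squares) of the KO, HET and WT libraries, with exact 95% Poisson intervals, which are often smaller than the symbol. Every gene is lower in CHGA-high than in CHGA-low cells of the same library.

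EIF2AK3, the gene of PERK (GRCh38, as all gene positions here, chromosome 2, 88556741 to 88627576, minus strand), had 14.5, 13.9 and 14.2 CPM in the CHGA-high cells of KO, HET and WT. It had 24.1, 19.2 and 21.3 CPM in the CHGA-low cells. Within the CHGA-high class the 3 libraries did not differ beyond counting error, with a log2 ratio of 0.03 for KO over WT (-0.22 to 0.28) and of -0.03 for HET over WT (-0.33 to 0.26). The genes AC104134.1 and AC062029.1 on the opposite strand overlap EIF2AK3 and were counted too, and whether counting used strand was not known.

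ATF4, the factor at the centre of the response (chromosome 22, 39519695 to 39522685, plus strand), had 212 CPM in KO, 191 in HET and 192 in WT CHGA-high cells. In CHGA-low cells it had 348, 258 and 319 CPM. HET was thus the lowest library among CHGA-low cells, by a log2 ratio to WT of -0.30 (-0.33 to -0.28), while KO was at 0.12 (0.10 to 0.15). These are RNA levels, and ATF4 is controlled largely through its translation, which was not measured.

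DDIT3 encodes CHOP, a bZIP factor that ATF4 induces and that promotes cell death when stress lasts (chromosome 12, 57516588 to 57521737, minus strand). It had 37.7 CPM in KO, 48.5 in HET and 55.3 in WT CHGA-high cells. KO was below both other libraries with intervals that did not touch theirs (34.7 to 40.9 CPM in KO, 44.2 to 53.1 in HET and 52.3 to 58.3 in WT). In CHGA-low cells the order was another, with 109 CPM in KO, 69.6 in HET and 94.6 in WT. The KO over WT log2 ratio was -0.55 (-0.70 to -0.41) in CHGA-high and 0.20 (0.16 to 0.24) in CHGA-low cells. DDIT3 overlaps MARS and MBD6 on the opposite strand and AC022506.1 on its own, all of them counted, so reads could be split among them.

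TRIB3 encodes a pseudokinase that restrains ATF4 and AKT signalling (chromosome 20, 362835 to 397559, plus strand). It had 7.69 CPM in KO, 9.92 in HET and 9.88 in WT CHGA-high cells, on 118, 95 and 234 UMIs. In CHGA-low cells it had 19.7, 14.5 and 14.9 CPM. CHAC1 encodes an enzyme that breaks down glutathione (chromosome 15, 40952962 to 40956519, plus strand), and had 10.7, 9.92 and 9.92 CPM in the CHGA-high cells of KO, HET and WT and 21.5, 13.3 and 18.7 CPM in the CHGA-low cells. SESN2 encodes a leucine-binding inhibitor of mTORC1 (chromosome 1, 28259527 to 28282491, plus strand). It had 42.2, 43.4 and 44.9 CPM in CHGA-high cells and 86.4, 64.8 and 73.2 CPM in CHGA-low cells. In CHGA-low cells KO was the highest and HET the lowest library for all 3 of these genes. For TRIB3, however, HET was within counting error of WT there, at a log2 ratio of -0.04 (-0.14 to 0.06). CHAC1 and SESN2 did not differ from WT beyond counting error in CHGA-high cells of KO or HET.

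The summed CHGA-high cells of both edited libraries were above those of WT for the 3 amino acid genes. ASNS, which encodes asparagine synthetase (chromosome 7, 97852118 to 97872542, minus strand), had 54.2 CPM in KO, 52.6 in HET and 39.0 in WT CHGA-high cells, and 95.8, 64.4 and 57.1 CPM in CHGA-low cells. PSAT1, which encodes phosphoserine aminotransferase of the serine pathway (chromosome 9, 78297143 to 78330093, plus strand), had 31.2, 31.3 and 20.3 CPM in CHGA-high cells and 138, 83.0 and 70.5 CPM in CHGA-low cells. SLC7A11 encodes the cystine importer xCT (chromosome 4, 138164097 to 138242349, minus strand), and had 37.4, 38.0 and 31.5 CPM in CHGA-high cells and 108, 82.2 and 89.3 CPM in CHGA-low cells. WT was the lowest of the 3 libraries for all 3 genes in CHGA-high cells, but for SLC7A11 HET was the lowest in CHGA-low cells.

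KO and WT CHGA-high cells were within 2-fold of each other for all 9 genes, while 6.15% of 11995 genes tested were at least 2-fold apart. PSAT1 alone passed 1.5-fold, at a log2 ratio of 0.62 (0.44 to 0.81), where 10.8% of all genes were that much higher and 8.9% that much lower. ASNS had 0.48 (0.34 to 0.61), SLC7A11 0.25 (0.09 to 0.41) and ATF4 0.15 (0.08 to 0.21). DDIT3 and TRIB3 were lower in KO, with TRIB3 at -0.36 (-0.69 to -0.04). The makeup of the class differed too, with 14.7% GHRL-gated and 2.73% GCG-gated cells in KO against 1.65% and 31.5% in WT, and its part was not tested beyond the subsets given below. The median of the 9, 0.11, was close to that of all genes, 0.10. With normalization by TMM factors, which centre the bulk of genes, the all-gene median became -0.01 and that of the 9 -0.0036, and DDIT3 then stood at -0.66 and PSAT1 at 0.51.

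Removing the 8% of cells with the highest doublet scores from each library left 1106 CHGA-high cells in KO and 1589 in WT and moved several of the log2 ratios. PSAT1 was then at 0.14, SLC7A11 at -0.02 and TRIB3 at -0.57, while DDIT3 was at -0.76 and ASNS at 0.39. The genes that had lain within counting error also moved, with CHAC1 at 0.01, SESN2 at -0.14 and EIF2AK3 at -0.07. PSAT1 also varied with the UMIs of a cell. In CHGA-high cells with 20000 to 40000 UMIs it had 64.6 CPM in KO (168 cells) and 31.7 CPM in WT (305 cells), a log2 ratio of 1.03 (0.78 to 1.27). With 10000 to 20000 UMIs it had 15.7 CPM in KO (647 cells) and 13.9 CPM in WT (880 cells), a ratio of 0.18 (-0.16 to 0.51), and with 3000 to 10000 UMIs 21.9 CPM in 232 KO cells and 12.2 CPM in 345 WT cells. With 1000 to 3000 UMIs the ratio was 0.14 on few UMIs (-1.14 to 1.39), so PSAT1 differed beyond counting error in 2 of the 4 bands. In the bands down to 3000 UMIs, from high to low, DDIT3 had 54.7, 27.3 and 46.9 CPM in KO. In WT it had 67.8, 49.3 and 47.9 CPM. With 1000 to 3000 UMIs it had 31.5 CPM in KO and 31.7 CPM in WT, a ratio of -0.01 (-1.21 to 1.14). In both bands below 10000 UMIs the libraries thus did not differ in DDIT3 beyond counting error. The part of doublets in these values was not tested further.

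HET and WT CHGA-high cells were also within 2-fold for all 9 genes, beside 3.03% of 11892 genes at least 2-fold apart. PSAT1 again passed 1.5-fold, at 0.63 (0.42 to 0.84), where 5.44% of all genes were that much higher and 6.56% that much lower. ASNS had 0.43 (0.27 to 0.59) and SLC7A11 0.27 (0.09 to 0.46), and DDIT3 was at -0.19 (-0.35 to -0.04). The other 5 genes lay between -0.05 and 0.01 with intervals that covered 0. The median of the 9 was 0.00037 and that of all genes 0.02. KO and HET are both set against the same WT cells, so their like values for PSAT1 and ASNS are not independent.

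**Figure D2:**
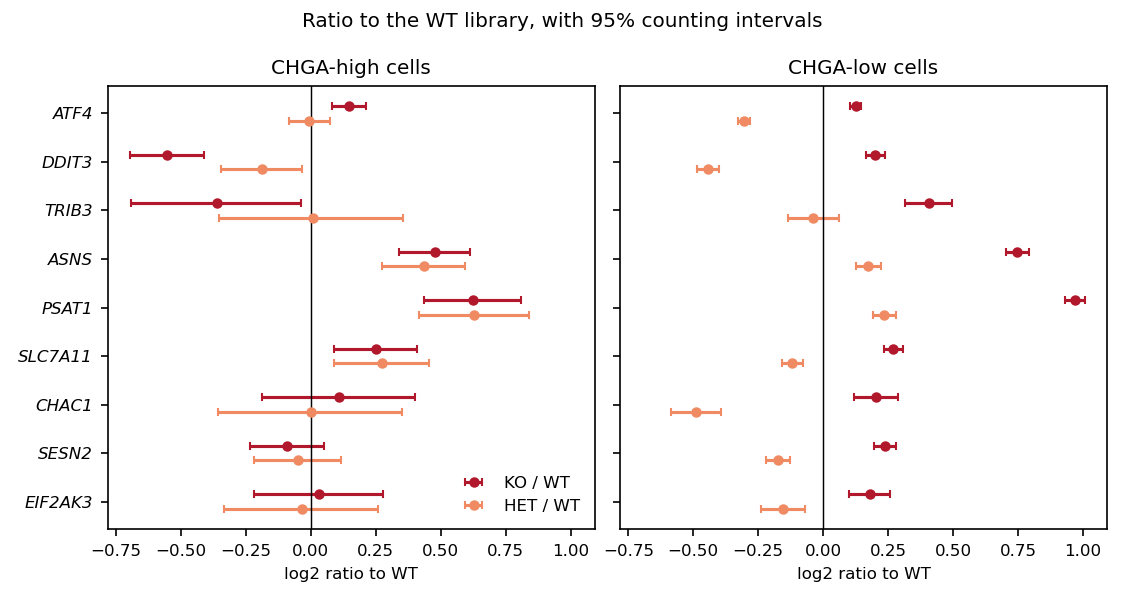
Log2 ratio of KO (dark red) and HET (orange) to WT for each gene in CHGA-high cells (left) and CHGA-low cells (right), with 95% counting intervals. PSAT1 and ASNS lie right of 0 in all 4 comparisons, and DDIT3 in KO lies left of 0 in CHGA-high and right of 0 in CHGA-low cells.

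In CHGA-low cells all 9 genes were higher in KO than in WT, from 0.12 for ATF4 to 0.97 for PSAT1 on the log2 scale, each with an interval above 0. Across all 11213 genes tested, 59.3% were higher and the median was 0.08, against 0.24 for the 9. At 1.5-fold, ASNS at 0.75 (0.70 to 0.79) and PSAT1 at 0.97 (0.93 to 1.01) were higher, beside 6.67% of all genes higher and 6.13% lower. None of the 9 was 2-fold apart, beside 3.59% of genes. TRIB3 had 0.41 (0.31 to 0.50), SLC7A11 0.27 (0.23 to 0.31) and SESN2 0.24 (0.20 to 0.28). KO CHGA-low cells held 6.14% NTS-gated cells, against 20.4% in WT, and had a median mitochondrial share of 5.62%, against 4.89% in WT. All 9 stayed above 0 in the 12 other settings tried, with ATF4 at 0.02 both with TMM factors and with gated subsets weighing the same. Parts of the class did not all show this. At 10% to 20% mitochondrial UMIs, ATF4 was at -0.28 (-0.42 to -0.14) and SLC7A11 at -0.44 (-0.69 to -0.20) in 374 KO against 255 WT cells, and ATF4 and EIF2AK3 were each higher in KO in 3 of the 6 gated subsets described below.

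HET CHGA-low cells went the other way for 7 of the 9 genes, while 60.3% of all genes were higher in HET than in WT. The lowest ratio was that of CHAC1, -0.49 (-0.59 to -0.39), followed by DDIT3 at -0.44 (-0.48 to -0.40) and ATF4 at -0.30. SESN2 had -0.17, EIF2AK3 -0.15 and SLC7A11 -0.12, while TRIB3 at -0.04 was within counting error (-0.14 to 0.06). ASNS, at 0.17 (0.13 to 0.22), and PSAT1, at 0.24 (0.19 to 0.28), were higher in HET. Again none was 2-fold apart, beside 3.61% of 11301 genes, and none passed 1.5-fold, beside 7.57% of genes higher and 4.69% lower. The HET CHGA-low cells also differed from WT in makeup. Cell cycle markers, all 8 at 5 CPM or more, summed to 302 CPM in HET and 157 CPM in WT. The median mitochondrial share was 6.47% in HET and 4.89% in WT. Of 7 mesenchymal genes tested, 5 were higher in HET and 2 lower, but the list summed to 428 CPM in HET and 432 CPM in WT. The collagen gene COL3A1 of this list had 33.9 CPM in HET and 0.177 CPM in WT. The part of these in the 9 ratios was not tested.

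The KO difference from WT was not the same in both classes, by more than counting error, for 5 genes. The log2 ratio in CHGA-high minus that in CHGA-low cells was -0.75 for DDIT3 (-0.90 to -0.61), -0.77 for TRIB3 (-1.10 to -0.44), -0.34 for PSAT1, -0.33 for SESN2 and -0.27 for ASNS. For ATF4 itself it was 0.02 (-0.05 to 0.09). In HET it was positive for all 9 genes and beyond counting error for 6 of them, from 0.25 for DDIT3 to 0.49 for CHAC1.

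Subsets gated by 1 or 2 marker genes, and named by these, showed how the genes vary within a class. Only subsets of at least 50 cells were read, which left 33 values per gene over the 3 libraries. SLC7A11 had its highest levels in the FABP1 subset (277 CPM in KO, 250 in HET and 191 in WT) and in the LYZ subset (207, 168 and 189.9 CPM). It was far lower in the NTS subset (40.7, 30.6 and 36.7 CPM) and in the INS subset of CHGA-high cells (15.9, 22.0 and 20.4 CPM). FABP1, LYZ and NTS encode a fatty acid binding protein, lysozyme and neurotensin. The ANKRD1 subset, gated on a gene of stretched and YAP-active cells, had the highest PSAT1 in KO and WT. It had 181, 109 and 114 CPM in KO, HET and WT. In HET the MKI67 and TOP2A subset was higher, at 117 CPM (110 to 124), with an interval that overlapped that of ANKRD1 (103 to 114). ASNS (128, 81.4 and 85.5 CPM) and ATF4 (421, 316 and 413 CPM) were highest in the ANKRD1 subset in all 3 libraries. DDIT3 was also high there, at 134, 87.2 and 113 CPM. Only the GHRL subset of HET, at 94.0 CPM on 59 cells, was above the ANKRD1 subset of its library. Their intervals overlapped (75.2 to 116 for GHRL and 82.5 to 92.0 for ANKRD1).

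DDIT3 was lower in KO than in WT in all 3 CHGA-high subsets that could be compared, INS, PHOX2A and the rest, at log2 ratios of -0.67 to -0.57 with every interval below 0. In INS-gated cells DDIT3 had 38.0 CPM in KO, 40.6 in HET and 60.6 in WT. TRIB3 in the same cells had 5.63, 7.61 and 12.4 CPM, although on only 12 UMIs in KO, and in PHOX2A-gated cells it ran the other way, with 9.66 CPM in KO and 5.86 CPM in WT and an interval that covered 0. ASNS and PSAT1 were higher in KO in 3 of 3 CHGA-high and in 6 of 6 CHGA-low subsets. SLC7A11 was higher in KO in only 1 of 3 CHGA-high subsets, with log2 ratios of -0.36 in INS-gated cells, 0.69 in PHOX2A-gated cells and -0.09 in the rest. PSAT1 in PHOX2A-gated cells, marked by a factor of autonomic neurons, had 30.5 CPM in KO, 35.6 in HET and 13.5 in WT. In GHRL-gated cells, which WT had too few of, DDIT3 had 36.2 CPM in KO (183 cells) and 94.0 CPM in HET (59 cells). In HET, ATF4, DDIT3 and CHAC1 were lower than in WT in 6 of 6 CHGA-low subsets, with the interval below 0 in 6, 6 and 5 of them. PSAT1 was higher in HET in 4 of 4 CHGA-high subsets and every interval was above 0.

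**Figure D3:**
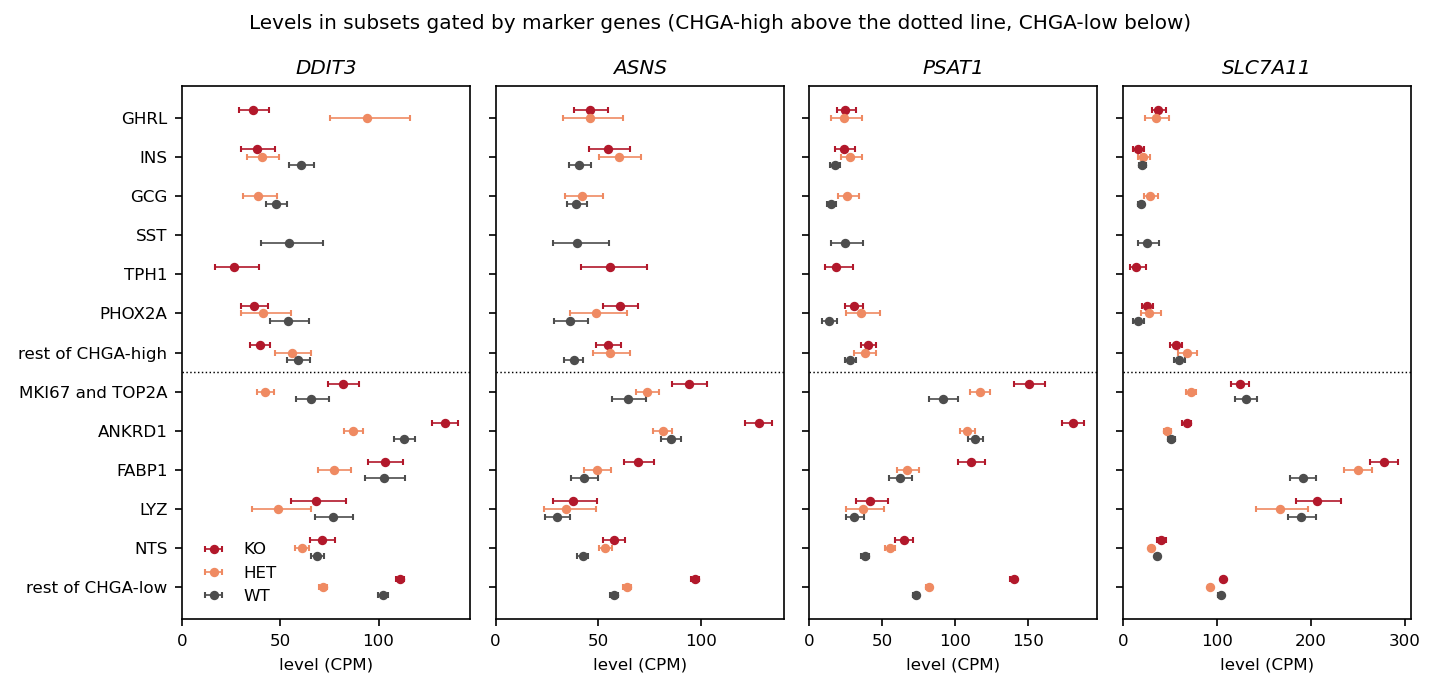
Levels (CPM, linear axes from 0) of DDIT3, ASNS, PSAT1 and SLC7A11 in subsets gated by marker genes, with exact 95% Poisson intervals, for KO (dark red), HET (orange) and WT (grey); subsets of under 50 cells in a library have no point. DDIT3 in KO lies left of WT in the INS, PHOX2A and remaining CHGA-high cells, and SLC7A11 stands out in the FABP1 and LYZ subsets.

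Levels also followed the share of mitochondrial UMIs of a cell. In KO CHGA-low cells ATF4 had 407 CPM below 5% mitochondrial UMIs, 308 from 5% to 10%, 243 from 10% to 20% and 194 above 20%. PSAT1 in the same bands had 182, 107, 67.7 and 62.8 CPM. The CPM total includes mitochondrial UMIs, so genes outside the mitochondria lose CPM as that share rises. No value over all genes is given by band beside these. In CHGA-high cells the KO over WT ratio of DDIT3 depended on the band. Below 5% it was 0.30 (-0.08 to 0.67), with 82.5 CPM in 145 KO cells and 67.0 CPM in 440 WT cells. From 5% to 10% it was -0.30 (-0.48 to -0.12) and from 10% to 20% it was -1.09 (-1.47 to -0.71), with 22.7 CPM in 410 KO cells and 48.4 CPM in 198 WT cells. KO CHGA-high cells had a higher mitochondrial share than WT ones, and its part in the DDIT3 difference was not tested beyond these bands. With at most 10% mitochondrial UMIs the ratio over all remaining CHGA-high cells was -0.28 for DDIT3, -0.20 for TRIB3 and 0.68 for SLC7A11. PSAT1 by contrast was higher in KO in the 3 bands up to 20%, at 1.03, 0.91 and 0.88, each with an interval above 0. SLC7A11 turned with the band, at 1.64 (1.28 to 1.99) below 5% and -0.59 (-1.16 to -0.02) from 10% to 20%.

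**Figure D4:**
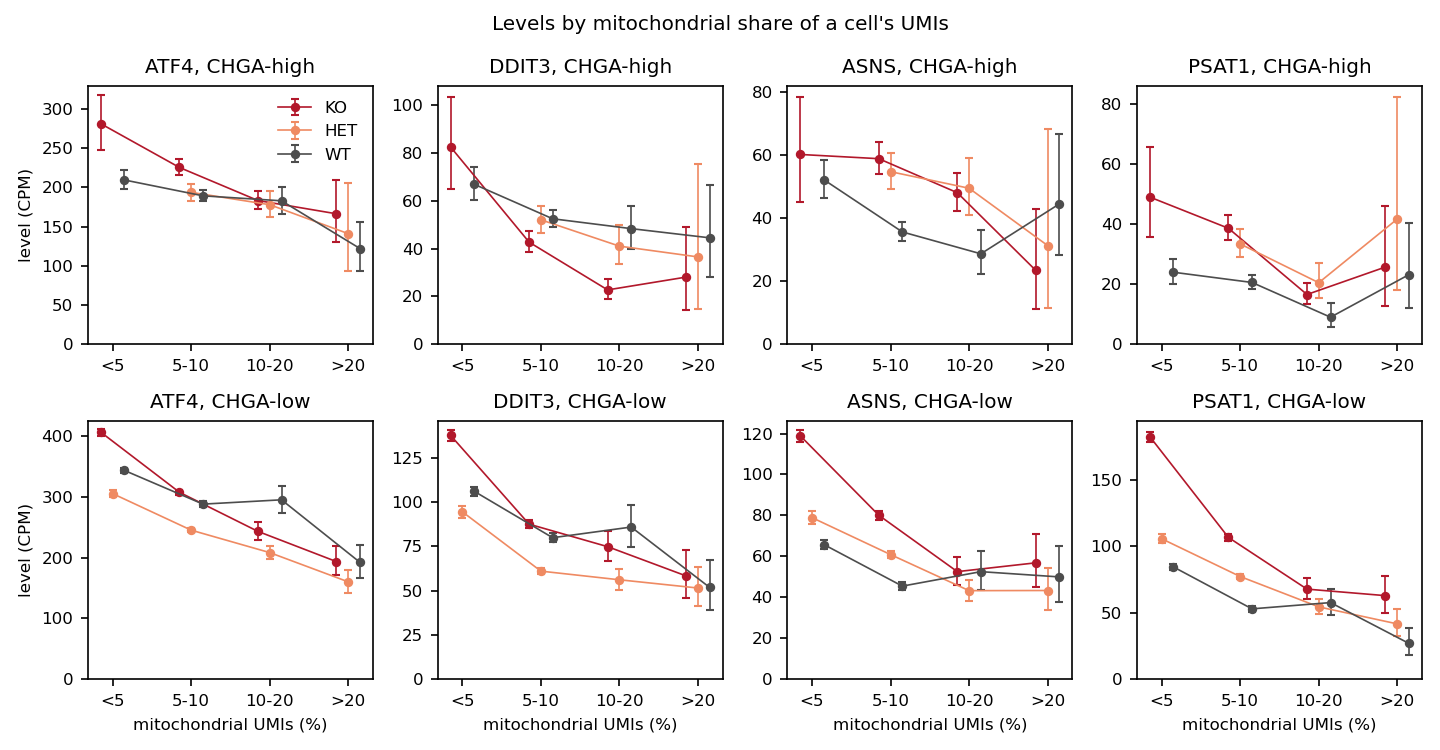
Levels (CPM, linear axes from 0) of ATF4, DDIT3, ASNS and PSAT1 in bands of a cell's mitochondrial UMI share, with exact 95% Poisson intervals, in CHGA-high cells (top) and CHGA-low cells (bottom) of KO, HET and WT; the HET band below 5% in CHGA-high cells had under 50 cells and no point. DDIT3 in KO CHGA-high cells has 82.5 CPM in the lowest band and 22.7 CPM from 10% to 20%.

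To compare shares of cells, each cell was thinned to 5000 UMIs, which left out 261, 116 and 352 shallower CHGA-high cells of KO, HET and WT. A DDIT3 UMI was then found in 14.9% of KO (12.8% to 17.3%), 16.8% of HET and 21.5% of WT CHGA-high cells (19.4% to 23.7%). Without thinning these shares were 26.7%, 34.5% and 37.5%. In CHGA-low cells the thinned shares were 36.5%, 26.0% and 31.7%. PSAT1 was found in 10.1%, 12.0% and 7.55% of thinned CHGA-high cells and in 40.6%, 26.7% and 22.6% of CHGA-low cells. SLC7A11 was found in 8.03%, 9.98% and 9.25% of thinned CHGA-high cells, and up to 11 of its UMIs lay in 1 thinned KO cell, so most CHGA-high cells had none at this depth. No cell type here should lack these genes, so free RNA in the droplets could not be gauged from them.

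At least 3 of the 9 genes were found together in 17.1%, 17.6% and 17.4% of thinned CHGA-high cells of KO, HET and WT. In CHGA-low cells this share was 53.3% in KO, 35.9% in HET and 38.2% in WT. No UMI of any of the 9 was found in 184 of 984, 109 of 591 and 294 of 1471 CHGA-high cells of KO, HET and WT, and in 5.13%, 10.5% and 8.35% of CHGA-low cells.

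**Figure D5:**
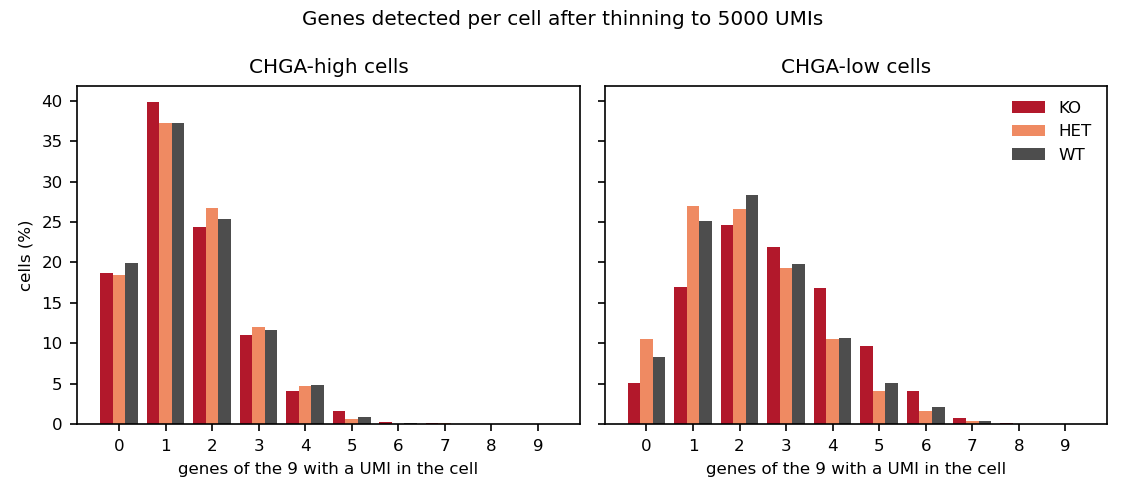
Share of cells (percent, bars from 0) with a UMI of 0 to 9 of the genes after thinning each cell to 5000 UMIs, in CHGA-high (left) and CHGA-low cells (right) of KO (dark red), HET (orange) and WT (grey). The 3 libraries nearly coincide in CHGA-high cells, and KO has more CHGA-low cells with 3 or more of the genes, 53.3% against 38.2% in WT.

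TRIB3 and CHAC1 were higher in CHGA-low cells that had a DDIT3 UMI. Among thinned CHGA-low cells, those with a DDIT3 UMI had 25.9 CPM of TRIB3 in KO, 21.6 in HET and 23.4 in WT, and those without had 13.4, 10.4 and 9.78 CPM. For CHAC1 the cells with a DDIT3 UMI had 29.8, 20.2 and 26.9 CPM and those without 16.4, 9.97 and 13.0 CPM. SLC7A11 differed less, with 126 CPM in KO CHGA-low cells with DDIT3 and 99.9 CPM in those without. The cells with DDIT3 had a slightly lower median mitochondrial share, 5.01% in KO against 5.68% in cells without. In CHGA-high cells TRIB3 was also higher with DDIT3 in all 3 libraries, but CHAC1 in HET had 8.08 CPM with DDIT3 and 11.8 without, and EIF2AK3 in WT had 12.0 CPM with and 16.6 without. Cells of 1 library are not replicates, so these are descriptions. The split pooled the gated subsets, whose part was not tested, and no value over all genes is given beside it.

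Other genes of the pathway were read from lists chosen with earlier results of these data known. A list of 13 genes held those of cytosolic aminoacyl-tRNA synthetases, many of them known ATF4 targets, and that of a tRNA export factor. Of the 13, 12 were higher in KO than in WT in CHGA-high cells, with a median log2 ratio of 0.39, where 59.7% of all genes were higher. In CHGA-low cells 12 were higher in KO as well, with a median of 0.47, beside 59.3% of all genes. In HET 11 of 13 were higher in each class, at 0.30 in CHGA-high cells, beside 52.1% of all genes, and at 0.17 in CHGA-low cells, beside 60.3%. In CHGA-low cells WARS, the tryptophanyl-tRNA synthetase gene, named after its values were seen, had 112 CPM in KO, 66.5 in HET and 44.8 in WT. The amino acid transporters had a median of 0.48 for KO over WT in CHGA-high cells. Of 9 tested, 5 were higher, beside 59.7% of all genes. At 1.5-fold, 4 were higher, beside 10.8% of genes, and 0 lower, beside 8.9%. In HET CHGA-high cells 7 of 7 were higher, at a median of 0.27, beside 52.1% of all genes. In CHGA-low cells 8 of 10 were higher in KO, at 0.42, beside 59.3%. There 3 of 8 were higher in HET, at -0.08, beside 60.3%.

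The 11 tested bZIP partners and other ATF4-linked factors had a median of -0.20 for KO over WT in CHGA-high cells. Of these 7 were lower, while 59.7% of all genes were higher, at a median of 0.10. In HET 7 of 11 were higher, at a median of 0.19, beside 52.1% of all genes. In CHGA-low cells 7 of 12 were higher in KO, at 0.26, beside 59.3% of all genes. There 5 of 12 were higher in HET, at -0.08, beside 60.3%. ATF3, a stress-induced repressor in this list, was higher in KO among CHGA-high cells, with 21.4 CPM in KO, 20.6 in HET and 14.8 in WT. The serine and one-carbon list had a median of 0.04 for KO over WT in CHGA-high cells, on 11 genes. PHGDH, the enzyme that opens the serine pathway ahead of PSAT1, had 96.9, 103 and 103 CPM in CHGA-high cells, and the mitochondrial folate enzyme gene MTHFD2 64.1, 61.2 and 62.4 CPM. Neither differed from WT beyond counting error, unlike PSAT1. HSPA5, the main endoplasmic reticulum chaperone gene, had 465, 529 and 520 CPM and was lowest in KO.

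Among the 13 eIF2 kinases and other eIF2 genes, of which 11 were higher in KO at a median of 0.19, beside 59.7% of all genes and a median of 0.10, EIF2AK2 passed 2-fold in CHGA-high cells, with 149.6 CPM in KO, 84.9 in HET and 69.7 in WT. It encodes PKR, the eIF2 kinase that responds to double-stranded RNA and that interferon induces. PPP1R15A, the feedback phosphatase subunit GADD34, had 58.9, 63.4 and 43.8 CPM in CHGA-high cells and 129.7, 113 and 81.7 CPM in CHGA-low cells, so both edited libraries were higher than WT in both classes. Between CHGA-high and CHGA-low cells the median log2 ratio of the eIF2 list was 0.24 in KO, 0.08 in HET and 0.22 in WT, whereas its summed level was lower in CHGA-high cells, with 935 against 1082 CPM in KO, 828 against 971 in HET and 769 against 942 in WT. The NRF2 targets, at medians of -1.24, -1.01 and -1.18, and the p53 targets, at -1.02, -0.82 and -0.70, were mostly lower in CHGA-high cells. Of all genes 56.6%, 50.1% and 55.7% were higher there in KO, HET and WT. Lower were 5 of 8 NRF2 targets in KO and 6 of 8 in HET and in WT, and 8 of 10 p53 targets in each library. Each of these 2 lists holds 1 of the 9, SLC7A11 or SESN2. Serine and one-carbon genes were lower in CHGA-high cells for 11 of 11 in KO and in WT and 10 of 11 in HET. Cell cycle markers were lower there for 8 of 8 in each library, so a fall of all members was not particular to the 9. Immediate early genes, which cell dissociation can induce, had medians of 0.44 for KO and 0.64 for HET over WT in CHGA-high cells, and FOSB had 86.3, 149 and 19.2 CPM in KO, HET and WT. Their part in the values of the 9 was not tested.

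Across the 33 subset values the 9 genes were only partly alike. Pearson's r on log2(CPM + 1) reached 0.88 for ATF4 with PSAT1 and was 0.11 for ASNS with SLC7A11. Among 6873 genes averaging at least 20 CPM, the 3 most like DDIT3 were GDF15 (0.92), HMOX1 (0.89) and PLA2G16 (0.86). Those most like ASNS were the aminoacyl-tRNA synthetase genes GARS (0.90), MARS (0.87) and EPRS (0.87). PSAT1 was closest to SHMT2 (0.96), EIF2S2 (0.96) and KNOP1 (0.92), and SLC7A11 to APOC1 (0.96), NDRG1 (0.96) and OTUD3 (0.95). ATF4 was closest to SNTB2 and EIF2S2, both at 0.93, and CHAC1 to ATF4, at 0.81. TRIB3 followed MYOF (0.82), SESN2 followed B4GALT4 (0.93) and EIF2AK3 followed STAT3 (0.80). The points share 3 libraries and their depths, so no p-value is given.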

How the data were processed

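Each of the 3 libraries was a matrix of raw UMI counts per gene and barcode that the authors deposited. Per the file headers it came from Cell Ranger 6.1.2, and GRCh38 and Seurat are named in the submitters' processing notes. For strand use, the end that was read and any barcode filter, these sources give nothing. The matrices held 145948590 UMIs on 9726 barcodes in KO, 136834433 on 9628 in HET and 140068492 on 9667 in WT.

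Barcodes with under 1000 UMIs (229 in KO, 376 in HET, 308 in WT) or over 40000 (104, 174 and 174) were left out. UMIs were summed per class and library and scaled to CPM, with exact Poisson intervals for levels and exact conditional binomial intervals for ratios; a gene entered counts with at least 5 CPM in 1 sum. CHGA-low subsets were gated by MKI67 plus TOP2A (at least 5 per 10000 UMIs), then by the highest of ANKRD1, FABP1, LYZ, KRT7, NTS and SLN (at least 10). CHGA-high subsets were gated by the highest of GHRL, INS, GCG, SST and TPH1 (at least 20), then by PHOX2A (at least 1). Doublets were not removed in the main values, and Scrublet scores (scanpy 1.11.5) served only as ranks. TMM factors came from edgeR 4.0.16. The code was tested on simulated counts. The members and gene lists were chosen with earlier results of these data known. Beyond the 9 genes, a gene of a list could be named if 2-fold apart from WT in CHGA-high cells, or as 1 of the 3 genes most like a member, and ATF3, PPP1R15A, PHGDH, MTHFD2 and HSPA5 always; TTR and WARS were named after their values were seen. Positions are from GENCODE 29 and promoters from RefSeq.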

Additional observations from a re-analysis of the deposited data

Results flagged for a closer look

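For 3 genes the difference from WT ran in opposite directions in the 2 cell classes, with each interval on its own side of 0, and this difference was not tested across libraries. DDIT3 in KO had a log2 ratio to WT of -0.55 in CHGA-high and 0.20 in CHGA-low cells. TRIB3 in KO had -0.36 in CHGA-high and 0.41 in CHGA-low cells. SLC7A11 in HET had 0.27 in CHGA-high and -0.12 in CHGA-low cells, and the first of these was -0.04 after thinning to 5000 UMIs.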

How the results depend on the processing

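The lower levels of all 9 genes in CHGA-high cells kept their sign in every library under all 11 other settings, and the signs of ASNS, PSAT1 and DDIT3 against WT kept theirs in both classes under all 12. In CHGA-high cells the KO ratio of EIF2AK3 changed sign in 6 settings, and the HET ratios of ATF4, TRIB3 and CHAC1 in 6, 5 and 8. The HET median in CHGA-high cells, 0.00037, became -0.065 with a CHGA cut of 5, -0.072 with no upper UMI limit and -0.058 after thinning. The KO median in CHGA-low cells, 0.24, became 0.14 with TMM factors and 0.16 with gated subsets weighing the same. The 2 genes at least 2-fold lower in CHGA-high cells became 1 in HET with a CHGA cut of 5 or at most 10% mitochondrial UMIs, and 1 in WT with a CHGA cut of 5. In KO the highest log2 ratio between classes over the settings was -0.78 for CHAC1 and -0.88 for SESN2, short of 2-fold. TMM factors moved the all-gene median from 0.08 to -0.03 for KO and HET in CHGA-low cells, and between classes to -0.09 in KO, -0.10 in HET and -0.09 in WT. The cause of these changes was not tested, except that TMM shifts all genes of a comparison alike.

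Counts over all genes at least 2-fold higher and lower moved more. With TMM factors 341 and 397 for KO in CHGA-high cells became 236 and 508, 159 and 243 for KO in CHGA-low cells became 114 and 307, and 258 and 150 for HET in CHGA-low cells became 183 and 225. Between classes 1825 and 1248 in KO became 1481 and 1555, 1314 and 999 in HET became 1167 and 1195, and 1642 and 1055 in WT became 1417 and 1344. With no CPM minimum the counts were 3719 and 1651 for KO and 4395 and 1290 for HET in CHGA-high cells, 3191 and 2720 for KO and 3499 and 2544 for HET in CHGA-low cells, and 9803 and 2768, 9746 and 2146, and 8287 and 2427 between classes in KO, HET and WT. At 20 CPM they were 150 and 156, 39 and 61, 58 and 96, 53 and 63, 962 and 741, 655 and 564, and 815 and 642 in the same order. In CHGA-high cells the 210 genes lower in HET became 352 after thinning, and the 341 higher in KO became 213 with gated subsets weighing the same. The count of the 9 genes stayed at 0 in the 4 comparisons with WT under all settings. No paired analysis was possible because each genotype had 1 library. Depth limits TRIB3, CHAC1 and EIF2AK3 most, with 95 to 337 UMIs in a CHGA-high sum.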
